A study of Saccharomyces cerevisiae with 12 samples.

Results

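The genes described here encode 7 cyclins of budding yeast and 2 inhibitors that hold the cell cycle in G1. They were chosen by their systematic names from a list of 10 genes: CLN1 (YMR199W), CLN2 (YPL256C), CLN3 (YAL040C), CLB1 (YGR108W), CLB2 (YPR119W), CLB5 (YPR120C), CLB6 (YGR109C), PCL1 (YNL289W), SIC1 (YLR079W) and WHI5 (YOR083W). Of these, 9 were measured among 6100 open reading frames, and all 9 had a value on every array; PCL1 was not analysed here. Saccharomyces cerevisiae cultures of wild type (strain DBY8778) and of a strain with USV1 deleted (YPL230W, a zinc finger protein gene) were followed into stationary phase on 12 arrays with 2 colours. Each strain had 6 arrays, 1 per time point, taken in wild type at 0, 3, 5, 7 and 9 hours (h) and after 1 day, and in the deletion at 2 instead of 3 h and otherwise at the same times. The labels give neither the medium, the mating type, the number of cultures or clones, nor the event from which time was counted.

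In yeast, progress from G1 into a new cycle is driven by cyclins that switch on the kinase Cdc28, also called Cdk1. Cln3 acts first and relieves the transcription factor SBF of its inhibitor Whi5, after which SBF and the related factor MBF switch on CLN1, CLN2, CLB5 and CLB6. Clb5 and Clb6 drive DNA replication once the inhibitor Sic1 has been destroyed, and Clb1 and Clb2 drive mitosis. Cells that run out of nutrients stop in G1 without starting a new cycle.

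Every value is a log2 ratio of the sample to a reference, with each array centred to a median of 0, so a level is relative to the median gene of its array and not an absolute amount. A ratio to a reference cannot be compared between genes, so levels are compared within a gene. USV1 itself, centred like the rest, was at -0.57, 0.50, 0.28, 4.40, 3.94 and 2.59 in wild type and at -1.0, -2.46, -1.40, 1.14, -0.98 and -0.29 in the deletion, in order of time. It was thus lower in the deletion at each of the 5 shared times, from which the direction (sample over reference) is likely rather than known. Its value in the deletion at 7 h exceeded those of wild type at 0 to 5 h, and what the probe measured there was not tested. Between 5931 and 6085 genes had a value on an array, and the standard deviation over genes was 0.488 to 0.679 on the arrays of both strains at 0 to 3 h and of wild type at 5 h, against 1.17 to 1.63 on the other 7. No 2 arrays correlated below r = -0.07 over genes. CLN1 and CLN2, CLB1 and CLB2, and CLB5 and CLB6 are pairs of related genes whose transcripts can bind each other's probes, so the split of signal within a pair is uncertain. In cultures, fewer cycling cells and less transcript per cell cannot be told apart.

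WHI5, whose product holds back SBF in G1, rose from early to late arrays while most cyclins fell, and its largest step came first, in the deletion by a narrow margin. In wild type its log2 ratio was -0.69 at 0 h, -0.02 at 3 h, 0.36 at 5 h, 0.78 at 7 h, 0.65 at 9 h and 0.53 at 1 day. The deletion gave -0.77 at 0 h, -0.21 at 2 h, 0.23 at 5 h, 0.52 at 7 h, 0.68 at 9 h and 0.14 at 1 day. All 6 arrays from 7 h on lay above all 4 arrays of 0 to 3 h, and the strains followed nearly the same path, with no time point at which they were more than 0.39 apart. The largest change between neighbouring arrays fell in the first interval in both strains, at 0.67 from 0 to 3 h in wild type and 0.56 from 0 to 2 h in the deletion. In the deletion the fall from 9 h to 1 day was nearly as large (-0.54). Of all genes with values throughout, 10.7% in wild type and 5.83% in the deletion had their largest change in that interval.

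CLN3, the cyclin that acts on Whi5, had different values on single arrays of the strains, though no test of the strain difference passed. In wild type its log2 ratio was 0.52 at 0 h, 0.16 at 3 h, 0.42 at 5 h, -0.63 at 7 h, -0.51 at 9 h and -0.17 at 1 day. For the deletion the values were 0.51 at 0 h, 0.32 at 2 h, 0.81 at 5 h, 0.84 at 7 h, -0.08 at 9 h and -0.11 at 1 day. The late wild-type arrays all lay below the early ones, whereas in the deletion the 7-hour array was above both early arrays. At 7 h CLN3 was 2.77-fold higher in the deletion, a difference of 1.47 that stood at percentile 98.2 of all genes at that time. As single arrays per strain, these values have no test at a given time.

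The log2 ratio of the inhibitor SIC1 passed through a peak, which in wild type was not seen by rank. In wild type its log2 ratio was 1.01 at 0 h, 0.61 at 3 h, 0.61 at 5 h, 1.94 at 7 h, 1.16 at 9 h and 0.31 at 1 day. The deletion stood at 0.36 at 0 h, 0.43 at 2 h, 1.95 at 5 h, 1.13 at 7 h, 0.54 at 9 h and -0.03 at 1 day. The highest log2 ratio was nearly the same in both strains and came at 7 h in wild type and at 5 h in the deletion, on 1 array each. After it the level was lower on each later array, and early and late arrays overlapped. Ranked among the genes of its array, SIC1 in wild type stood at percentile 94.34 at 0 h and 92.95 at 7 h. In the deletion it stood at percentile 74.84 at 0 h and 90.77 at 5 h.

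**Figure D1:**
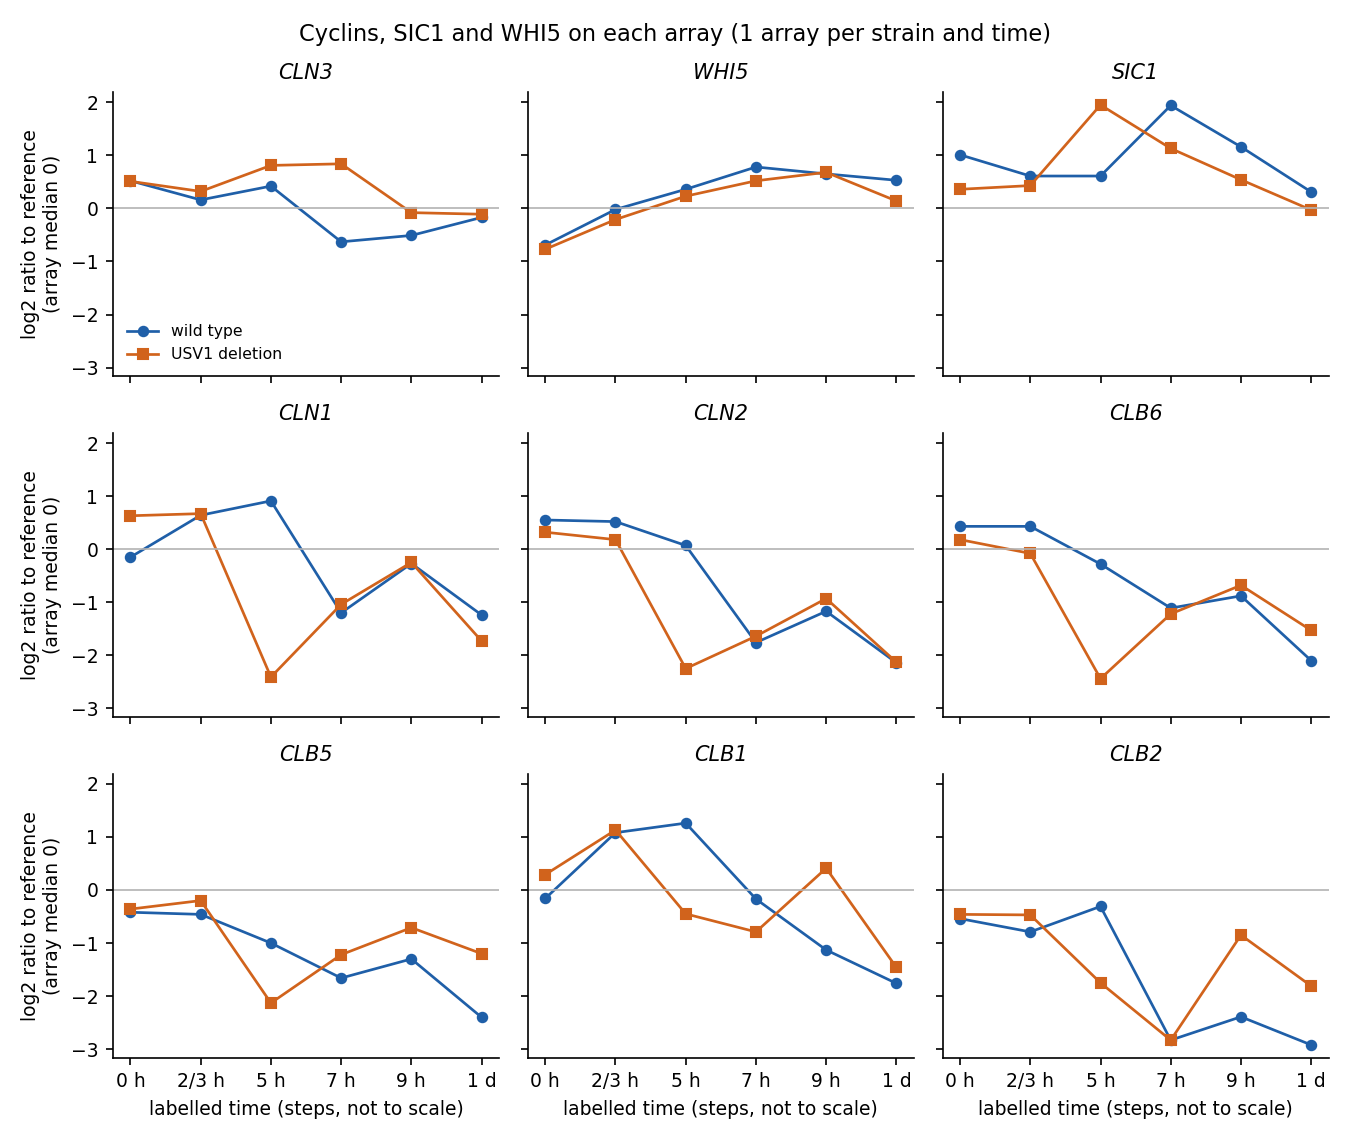
Centred log2 ratio of each gene (vertical axis) at each labelled time (horizontal axis, in steps and not to scale), with 1 array per point, circles for wild type and squares for the USV1 deletion. WHI5 is above its 0-hour level on every later array, SIC1 peaks at 1.94 in wild type at 7 h and at 1.95 in the deletion at 5 h, and CLN1 stands at -2.41 in the deletion at 5 h, when it is at 0.91 in wild type.

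The G1 cyclin genes CLN1 and CLN2, whose products commit the cell to a new cycle, had lower log2 ratios on all late arrays than on any early array, though CLN1 in wild type at 0 h lay close to its 9-hour values. By rank among the genes of its array, CLN1 in wild type was no lower at 9 h (percentile 40.24) than at 0 h (39.89). CLN1 in wild type was at -0.15 at 0 h, 0.64 at 3 h, 0.91 at 5 h, -1.20 at 7 h, -0.27 at 9 h and -1.24 at 1 day. Without USV1 it was at 0.63 at 0 h, 0.67 at 2 h, -2.41 at 5 h, -1.04 at 7 h, -0.25 at 9 h and -1.73 at 1 day. The lowest CLN1 log2 ratio was thus that of the deletion at 5 h, where it had dropped by 3.08, or 8.46-fold, from the array before it. That array had a standard deviation over genes of 1.63, against 0.52 at 2 h. Ranked among the genes of its array, CLN1 in the deletion was at percentile 7.69 at 5 h and lower, at 6.57, at 1 day. CLN2 in wild type was at 0.55 at 0 h, 0.52 at 3 h, 0.07 at 5 h, -1.76 at 7 h, -1.17 at 9 h and -2.14 at 1 day. The deletion gave 0.32 at 0 h, 0.18 at 2 h, -2.25 at 5 h, -1.64 at 7 h, -0.93 at 9 h and -2.13 at 1 day. From 7 h on the strains were within 0.24 of each other for CLN2, and both shared a higher value at 9 h than on either side of it.

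The S phase cyclin genes CLB5 and CLB6 were already below both early arrays at 5 h in wild type, as was CLN2. CLB6 in wild type was at 0.43 at 0 and at 3 h, -0.28 at 5 h, -1.11 at 7 h, -0.88 at 9 h and -2.10 at 1 day. For the deletion the values were 0.18 at 0 h, -0.08 at 2 h, -2.44 at 5 h, -1.22 at 7 h, -0.68 at 9 h and -1.53 at 1 day. CLB5 in wild type was at -0.42 at 0 h, -0.46 at 3 h, -1.0 at 5 h, -1.66 at 7 h, -1.30 at 9 h and -2.40 at 1 day. The deletion stood at -0.36 at 0 h, -0.20 at 2 h, -2.13 at 5 h, -1.22 at 7 h, -0.71 at 9 h and -1.20 at 1 day. For both genes the largest wild-type change between neighbouring arrays fell from 9 h to 1 day, where 15.4% of all genes had theirs, and the deletion had its lowest value at 5 h.

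The mitotic cyclin genes CLB1 and CLB2 had late values below most early ones, with a higher value at 9 h in the deletion. CLB2 in wild type was at -0.54 at 0 h, -0.79 at 3 h, -0.31 at 5 h, -2.83 at 7 h, -2.39 at 9 h and -2.92 at 1 day. Without USV1 it was at -0.46 at 0 h, -0.47 at 2 h, -1.75 at 5 h, -2.83 at 7 h, -0.85 at 9 h and -1.81 at 1 day. CLB2 was thus equal in both strains at 7 h and 2.91-fold higher in the deletion at 9 h. CLB1 in wild type was at -0.16 at 0 h, 1.08 at 3 h, 1.26 at 5 h, -0.17 at 7 h, -1.13 at 9 h and -1.76 at 1 day. The deletion gave 0.29 at 0 h, 1.13 at 2 h, -0.45 at 5 h, -0.79 at 7 h, 0.41 at 9 h and -1.46 at 1 day. It was higher on the second array than at 0 h in both strains, by 1.24 in wild type and 0.84 in the deletion, and over both strains its early and late arrays overlapped.

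For most members the largest step between neighbouring arrays came at 5 to 7 h in wild type and at 2 to 5 h in the deletion, as it did for most genes. In wild type 6 of 9 members (CLN1, CLN2, CLN3, CLB1, CLB2 and SIC1) had theirs at 5 to 7 h, against 50.9% of all genes. In the deletion 5 of 9 (CLN1, CLN2, CLB5, CLB6 and SIC1) had theirs at 2 to 5 h, against 57.0%. CLN3 and CLB2 in the deletion had theirs at 7 to 9 h, against 7.77%, in opposite directions (-0.92 and 1.98). CLB1 had its at 9 h to 1 day, against 17.6%.

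To compare the end of the course with its start, late arrays (7 h, 9 h and 1 day) were set against early arrays (0 h and 2 or 3 h) in a limma fit over all genes, with the 5-hour arrays apart. In the mean of both strains 7 of the 9 genes changed, against 54.2% of all 6083 genes tested. Of these 6 fell, against 26.5%, and 1 rose, WHI5, against 27.7%. Their median was -1.40, where the median of all genes was 0.07. CLN2 fell the most (-2.02, SE 0.26, 4.06-fold, adjusted p = 1.75e-05), before CLB2 (-1.71, SE 0.31, adjusted p = 0.000335) and CLB6 (-1.49, SE 0.26, adjusted p = 0.000256). CLN1 and CLB1 followed at -1.40 each (SE 0.30 and 0.39, adjusted p = 0.0013 and 0.0079), and then CLB5 at -1.05 (SE 0.23, adjusted p = 0.00171). The size and place of CLB2 depended on the normalization. After quantile normalization it was at -0.91 in wild type, where CLN1 was at -1.27 and CLB1 at -2.23, and at -0.63 in the deletion. WHI5 rose by 0.97 (SE 0.22, 1.96-fold, adjusted p = 0.00187). CLN3 (-0.49, SE 0.23, adjusted p = 0.0897) and SIC1 (0.24, SE 0.30, adjusted p = 0.523) did not pass, and the sign of SIC1 turned after quantile normalization (-0.40). Over both strains, 5 genes had all late arrays below all early arrays (CLN1, CLN2, CLB2, CLB5 and CLB6), against 20.1% of all genes, and WHI5 alone had them above, against 20.6%. Ranked among the genes of each array, the separation held for CLN2, CLB6 and WHI5 but not for CLN1, CLB2 and CLB5. CLN1 in wild type stood at percentile 39.89 at 0 h and 40.24 at 9 h. CLB2 stood at percentile 6.0 in wild type at 3 h and 16.22 in the deletion at 9 h, and CLB5 at 18.51 and 19.86. The p-values measure the scatter of time points within a bin and not the spread between cultures. The call was lost for CLB5 after quantile normalization (adjusted p = 0.0729), for CLB1 without the wild-type 3-hour array (adjusted p = 0.0519) or with the 5-hour arrays counted as late (adjusted p = 0.101), and for CLN1, CLB5 and CLB6 with them counted as early (adjusted p = 0.104 to 0.152), while CLN3 passed without the deletion's 7-hour array (-0.64, adjusted p = 0.0184). CLN1 was also lost as a slope per time step (adjusted p = 0.0981). CLN3 also passed after quantile normalization and with 9 h and 1 day alone as late (-0.59, adjusted p = 0.0327), and SIC1 with 7 and 9 h alone as late (0.59, adjusted p = 0.0448).

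**Figure D2:**
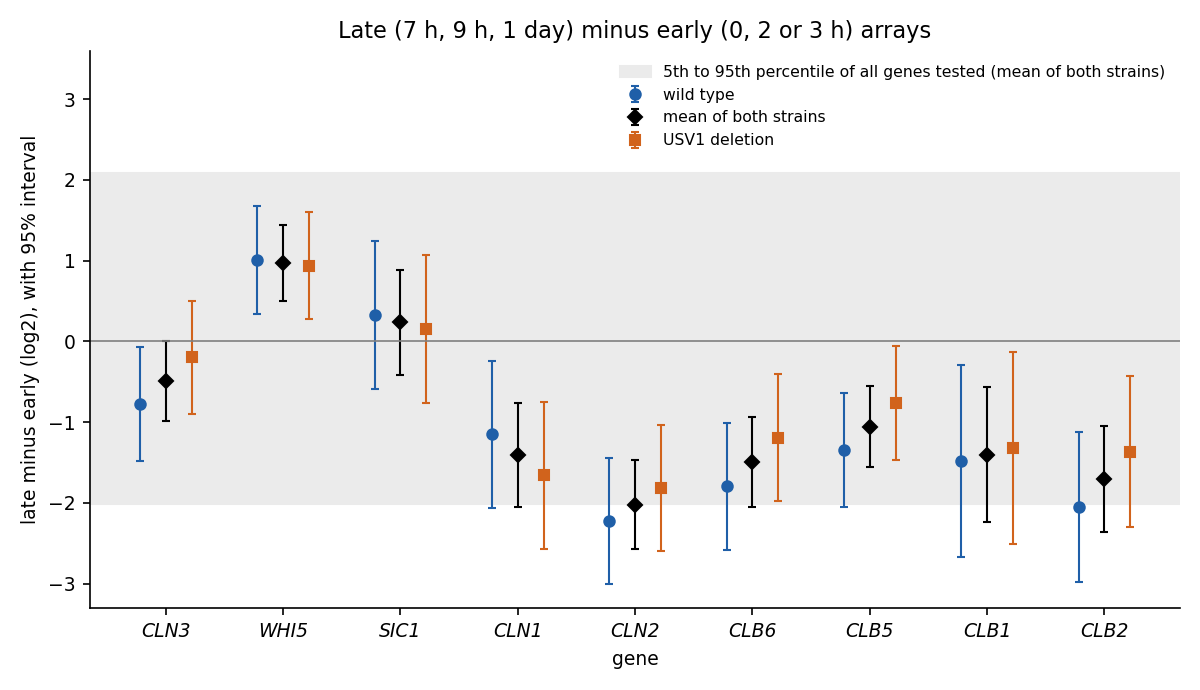
Late minus early difference in log2 (vertical axis) of each gene (horizontal axis) in wild type (circles), in the deletion (squares) and in the mean of both (diamonds), with 95% intervals from the limma fit; the grey band spans the 5th to 95th percentile of all genes tested. CLN2 has the lowest mean at -2.02, at the lower edge of the band at -2.01, and only WHI5 has all 3 intervals above 0.

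Within wild type 7 genes changed, against 37.3% of all genes. Of these 6 fell, against 19.4%, and WHI5 rose by 1.01 (SE 0.31, adjusted p = 0.0196), against 17.9%. The difference was -2.23 for CLN2 (SE 0.37), -2.05 for CLB2 (SE 0.43), -1.79 for CLB6 (SE 0.37) and -1.35 for CLB5 (SE 0.33), with adjusted p-values from 0.000349 to 0.00581. CLB1 (-1.48, SE 0.56, adjusted p = 0.0493) and CLN1 (-1.15, SE 0.42, adjusted p = 0.0465) lay close to the threshold. Leaving out single arrays, the call of CLN1 was lost in 7 of 12 cases and that of CLB1 in 6, at most with adjusted p = 0.318 and 0.374 without the wild-type 3-hour array, and that of WHI5 without the wild-type 0-hour array (adjusted p = 0.236); CLN3 passed without the deletion's 7-hour array (adjusted p = 0.0407). With 7 and 9 h alone as late, CLN1 (adjusted p = 0.055) and CLB1 (adjusted p = 0.0858) were lost and CLN3 passed (adjusted p = 0.037). With 9 h and 1 day alone, CLN1 (adjusted p = 0.127) and WHI5 (adjusted p = 0.0533) were lost. After quantile normalization CLN2 and CLB6 were the 2 members called. All late wild-type arrays lay below the early ones for 7 members, these 6 and CLN3, against 30.5% of all genes, and above them for WHI5, against 31.9%. By rank this did not hold for CLN1 (percentile 39.89 at 0 h, 40.24 at 9 h) or CLB1 (39.29 at 0 h, 43.92 at 7 h).

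Within the deletion 5 genes changed, against 39.0% of all genes. Of these 4 fell, against 19.1%, and WHI5 rose by 0.94 (SE 0.31, adjusted p = 0.0273), against 19.9%. The difference was -1.82 for CLN2 (SE 0.37), -1.66 for CLN1 (SE 0.42), -1.36 for CLB2 (SE 0.43) and -1.19 for CLB6 (SE 0.37), with adjusted p-values from 0.00148 to 0.0228. CLB1 (-1.32, SE 0.56, adjusted p = 0.0736) and CLB5 (-0.76, SE 0.33, adjusted p = 0.0835) did not pass. Without the 0-hour array of the deletion CLN2 was the 1 gene still called, and the calls of CLN1, CLB2, CLB6 and WHI5 were lost (adjusted p = 0.0505 to 0.258). Without the 2-hour array CLN1, CLB2 and CLB6 were lost, without the 7-hour array CLB2 and WHI5, without the 9-hour array WHI5 and without the 1-day array CLB6, while CLB1 passed without the 9-hour array of the deletion (-1.84, adjusted p = 0.0153) or the 7-hour array of wild type, and CLB5 without the 1-day array of wild type. With 9 h and 1 day alone as late, CLB2 (adjusted p = 0.0805) and WHI5 (adjusted p = 0.0624) were lost. The call of CLB2 was also lost with the 5-hour array counted as late (adjusted p = 0.134) and after quantile normalization (-0.63, adjusted p = 0.23), and that of WHI5 on the values as deposited (0.83, adjusted p = 0.0501). All late arrays of the deletion lay below its early ones for 5 members (CLN1, CLN2, CLB2, CLB5 and CLB6), against 30.5% of all genes, and above them for WHI5, against 33.5%. By rank this did not hold for CLB2 (percentile 15.38 at 0 h, 16.22 at 9 h).

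Whether the late minus early difference itself differed between the strains was tested as an interaction, and none of the 9 genes passed, nor did any of the 6083 genes (0.00%, limma, 249 at an unadjusted p under 0.05, none of them a member). The estimates, deletion minus wild type, ran from -0.51 for CLN1 (95% interval -1.80 to 0.78) to 0.68 for CLB2 (95% interval -0.63 to 2.0). For CLN3 the estimate was 0.58 (95% interval -0.42 to 1.58), for CLN2 0.41 (95% interval -0.70 to 1.52) and for WHI5 -0.07 (95% interval -1.01 to 0.87). These intervals are wide enough to hold a 2-fold difference in at least 1 direction for all 9 genes.

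Averaged over the 5 shared time points, no member passed the test of the strain difference either, and neither did any of 6062 genes (0.00%, limma, 260 at an unadjusted p under 0.05, none of them a member). USV1 itself, 6.21-fold lower in the deletion (-2.63, SE 0.56), did not pass (adjusted p = 0.814), so this test missed the deleted gene. Among members the difference, deletion minus wild type, was closest to passing for CLN3 at 0.47 (SE 0.27, 95% interval -0.16 to 1.09, adjusted p = 0.814). It was -0.57 for CLN1 (SE 0.54), -0.44 for CLN2 (SE 0.39) and -0.17 for WHI5 (SE 0.21). At 7 h, 9 h and 1 day alone, the estimate of CLN2 turned from -0.44 to 0.12 and that of CLB6 from -0.35 to 0.22.

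Single time points were further apart than these averages. At 5 h 6 of the 9 genes were at least 2-fold lower in the deletion, against 20.0% of all genes, and 1, SIC1, was at least 2-fold higher, against 20.4%. CLN1 was 9.99-fold lower (percentile 2.65 of all genes), CLN2 4.99-fold (6.54), CLB6 4.47-fold (7.35), CLB1 3.27-fold (10.6), CLB2 2.71-fold (13.4) and CLB5 2.19-fold (17.7). SIC1 was 2.53-fold higher (86.4) and WHI5 differed by -0.13. The strain difference had a standard deviation over genes of 1.43 at 5 h, against 0.46 to 0.75 at the other shared times. The largest step of most genes came at 2 to 5 h in the deletion (57.0%) and at 5 to 7 h in wild type (50.9%). At 7 h CLN3 was the 1 member at least 2-fold higher, against 5.75% of all genes, and 0 members were 2-fold lower, against 2.25%. At 0 h 0 members were 2-fold lower or higher, against 2.26% and 1.46%. At 9 h CLB1 and CLB2 were both 1.54 higher in the deletion, at percentiles 99.2 and 99.3, where 3.62% of all genes were at least 2-fold higher and 2.66% lower, with 0 members lower. At 1 day CLB5 was higher by 1.20 and CLB2 by 1.11, against 9.03% of all genes at least 2-fold higher, and 0 members were 2-fold lower, against 8.93%. SIC1 was lower in the deletion at 0, 7 and 9 h and 1 day, by 0.34 to 0.81, and higher only at 5 h.

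**Figure D3:**
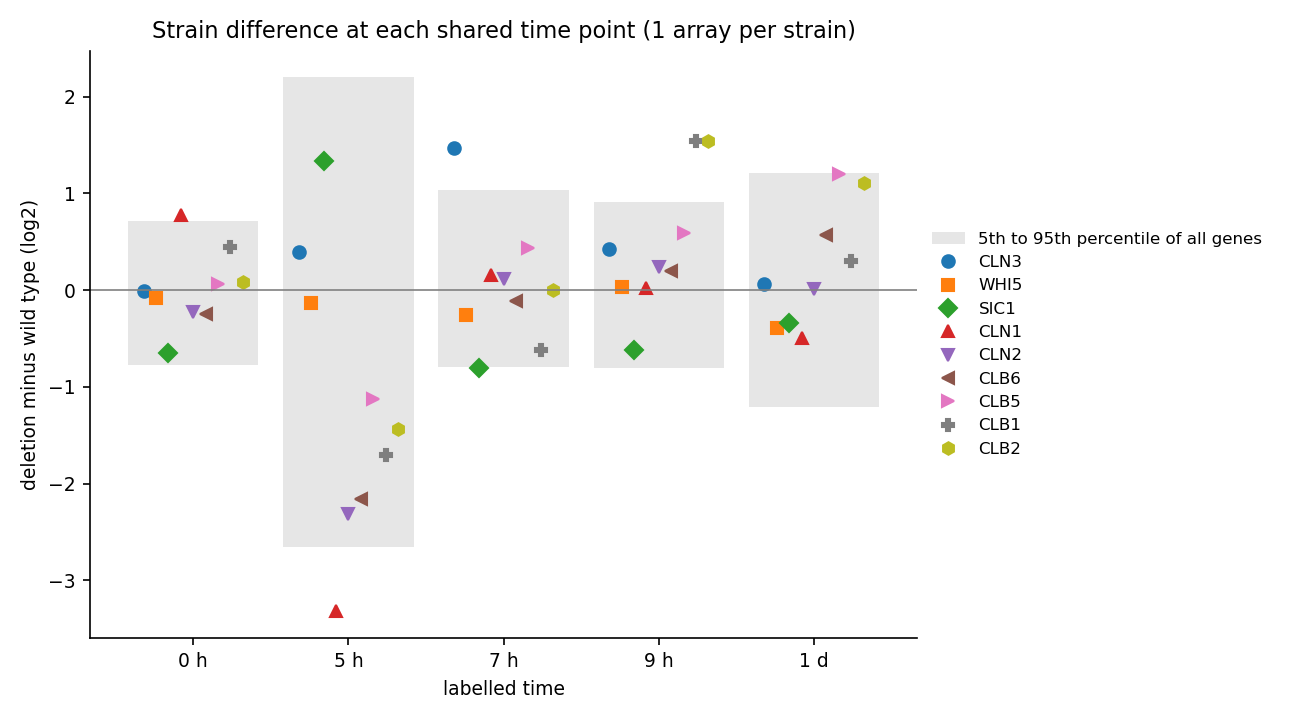
Deletion minus wild type in log2 (vertical axis) at each shared time point (horizontal axis), with 1 point per gene and a grey band from the 5th to the 95th percentile of all genes at that time. At 5 h 6 cyclins lie between -3.32 and -1.13 within or below a band of -2.66 to 2.20, and at 9 h CLB1 and CLB2 at 1.54 lie above a band that ends at 0.91.

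Among the late arrays 5 cyclins had their highest value at 9 h, which as a log2 ratio was still below all early arrays. By rank among the genes of each array, this last point did not hold for CLN1, CLB2 and CLB5. CLB2 in the deletion, for example, stood at percentile 16.22 at 9 h and 15.38 at 0 h. In both strains CLN1, CLN2, CLB2, CLB5 and CLB6 were higher at 9 h than at 7 h and at 1 day, a shape shown by 8.15% of all genes, and no member had the opposite shape, shown by 7.04%. From 7 to 9 h, wild type and the deletion stepped up by 0.93 and 0.79 for CLN1, 0.59 and 0.71 for CLN2, and 0.44 and 1.98 for CLB2. For CLB5 these steps were 0.36 and 0.51, and for CLB6 0.23 and 0.54. The step from 9 h to 1 day was -0.97 and -1.48 for CLN1. CLN1, CLN2, CLB1, CLB6, SIC1 and WHI5 were lower at 1 day than at 7 and 9 h in both strains, against 15.6% of all genes. Both shapes were picked after the values had been seen, rest on 1 array per strain and time, and have no test.

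How an inhibitor moved against a cyclin can be followed as the difference of their log2 ratios, also chosen after the values had been seen and given with no test. Its zero is set by the reference and the centring, so only its course within a strain can be read. That course also carries the unequal spread over genes of the arrays. WHI5 minus CLN3 in wild type was -1.21 at 0 h, -0.18 at 3 h and -0.06 at 5 h, then 1.41 at 7 h, 1.16 at 9 h and 0.70 at 1 day. For the deletion the values were -1.28 at 0 h, -0.53 at 2 h, -0.58 at 5 h and -0.32 at 7 h, then 0.76 at 9 h and 0.25 at 1 day. The largest step up thus lay between 5 and 7 h in wild type and between 7 and 9 h in the deletion. SIC1 minus CLB5, the inhibitor against an S phase cyclin it binds, had its highest value at 7 h in wild type (3.6) and at 5 h in the deletion (4.08). Those arrays had the widest spread of their strain (standard deviation over genes 1.46 and 1.63), which can enlarge such a difference. By rank SIC1 in wild type was no higher at 7 h (percentile 92.95) than at 0 h (94.34). In the deletion it was higher by rank at 5 h (90.77) than at 0 h (74.84). At 1 day SIC1 minus CLB5 stood at 2.71 in wild type, against 1.43 at 0 h, and at 1.17 in the deletion, against 0.72.

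The 6 cyclins that fell were picked for that shared direction, which favours high correlations among them. With all other genes, which include those that rose, the median of their median correlations over the 12 arrays was -0.073. It is therefore no like background for genes picked because they fell. Over the same 12 arrays the 15 pairs of the 6 cyclins had a median of 0.788. Over the 6 arrays of wild type their 15 pairs had Pearson correlations from 0.718 to 0.996 with a median of 0.85, and over the 6 arrays of the deletion from 0.67 to 0.99 with a median of 0.80. CLB5 and CLB6, which lie on different chromosomes, correlated at 0.996 and 0.977. As a related pair, their transcripts can bind each other's probes, and how much this adds to the correlation was not tested. CLB6 is the next gene to CLB1 and CLB5 the next gene to CLB2 on the chromosome, and these neighbours correlated less, at 0.76 and 0.69 for CLB1 with CLB6 and at 0.86 and 0.69 for CLB2 with CLB5, in wild type and the deletion. CLN3 correlated with the 6 at 0.55 to 0.90 in wild type and at -0.41 to -0.03 in the deletion. WHI5 correlated negatively with all 7 cyclins in both strains. The points of each correlation share the reference and span both high early and low late arrays, and these values are descriptions without a test.

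**Figure D4:**
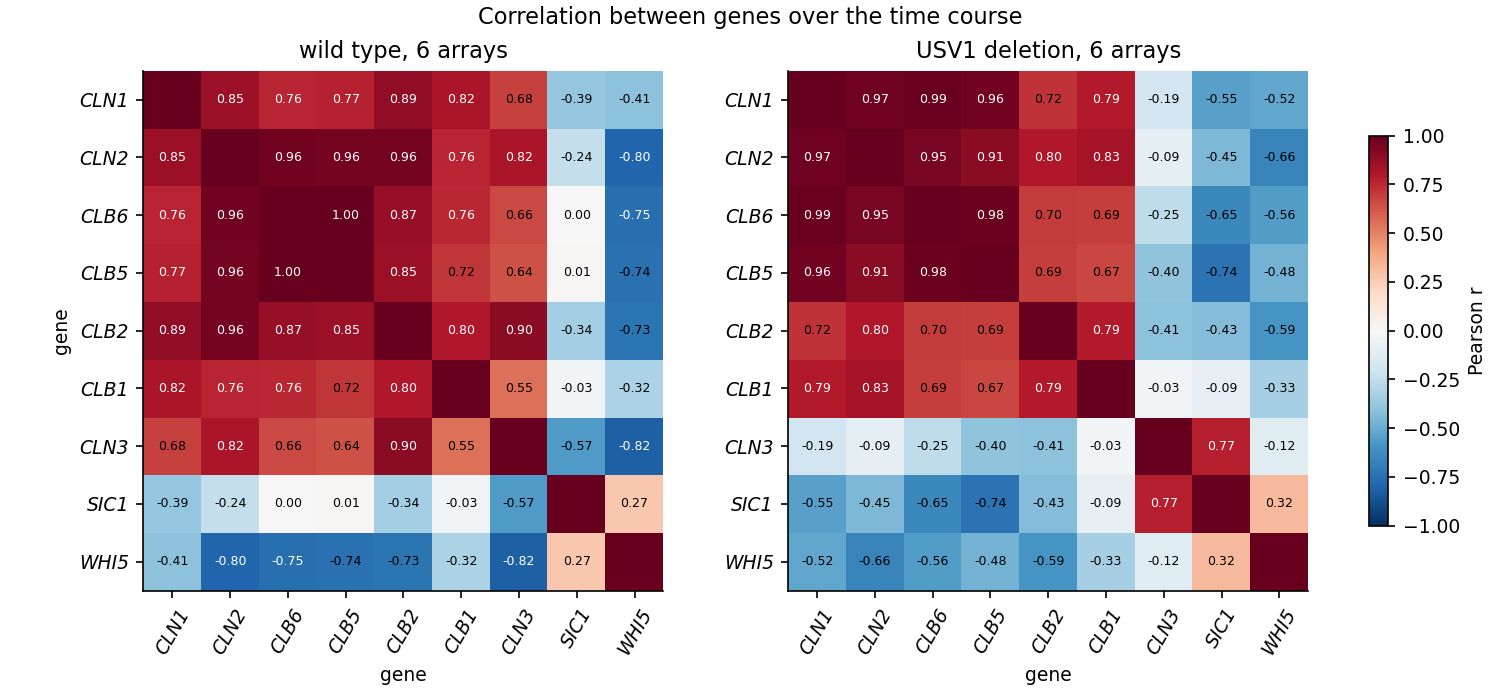
Pearson correlation (colour, from -1 to 1) between each pair of genes over the 6 arrays of wild type (left) and of the USV1 deletion (right), with the value printed in each square. The block of 6 cyclins is above 0.66 in both strains, while the row of CLN3 is positive with these cyclins in wild type and negative in the deletion.

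Among 5353 other genes with all 12 values, those most like each member over the 12 arrays included known cell cycle genes. The nearest to CLB6 were CDC45, a subunit of the active replicative helicase (r = 0.96), SEN34 (0.96) and CDC21, the thymidylate synthase (0.96). SVS1 (0.93) led for CLB5 before ILV6 and CSM3, and for CLB2 the histone H4 gene HHF2 (0.95) and the mitotic kinase gene CDC5 (0.95) followed ADH1 (0.96). For CLB1 they were EAF5, PMT6 and PCL2, a G1 cyclin of the kinase Pho85 (0.89). For CLN2 they were CSI2, RPS22B, which is uncertain because of its near-identical copy, and BBP1 (0.97), the gene next to CLN2 on the chromosome. CLN1 was nearest to FDO1 (0.97), PRY2 and KAR1, CLN3 to YMR315W (0.89), ISW1 and CNA1, SIC1 to YPR148C (0.99), LAP2 and DEP1, and WHI5 to YGL188C (0.94), HOR7 and HAP4, an activator of respiratory genes (0.92). Of these 27 entries 5 were in the lists of other cell cycle genes described next, which held 60 of the 5353 genes (1.12%). Ranked by Spearman correlation, 7 of the 27 entries were again among the nearest 3. Of the list genes CDC45 stayed there at rank 1, while PCL2, CDC21, CDC5 and SVS1 stood at ranks 6, 8, 12 and 34.

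Other cell cycle genes were taken from 7 lists with 77 entries for 74 genes, all of them measured, and are given for the late minus early mean of both strains. Of 18 G1 target genes of SBF and MBF, 16 fell and none rose, with a median of -0.98, against 26.5% of all genes that fell. They were led by POL30, the sliding clamp of DNA replication (-1.71, SE 0.29), and CDC21 (-1.68, SE 0.20), while POL1 (0.04) and RAD53 (0.01) did not pass. Of 11 mitotic genes of the CLB2 cluster 6 fell and 5 did not pass, with a median of -0.71, led by BUD4, a bud site protein (-1.28, SE 0.30), and HST3, a histone deacetylase (-1.14, SE 0.22). Of 5 mitotic transcription factors 2 fell, FKH1 (-1.35, SE 0.34) and FKH2 (-0.95, SE 0.26), with a median of -0.33.

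Lists of cyclin regulators held genes called in both directions, to be read against 27.7% of all genes that rose and 26.5% that fell. Of 10 genes for Cdk1 and its other partners 7 fell, among them the Cdk1 inhibitor kinase SWE1 (-1.16, SE 0.25) and CDC28 itself (-0.85), and 2 rose, led by CAK1, the kinase that activates Cdk1 (0.999, SE 0.24). Within wild type alone 2 of these 10 fell, against 19.4% of all genes, and within the deletion alone 3, against 19.1%. Of 11 Start transcription factors and regulators 2 rose and 3 fell in the mean of both strains, close to or below the shares of all genes in that mean. XBP1, a stress-induced repressor of cyclin genes, rose by 1.61 (SE 0.20, adjusted p = 1.27e-05), and SRL3 rose by 1.18. NRM1, a corepressor of MBF targets, fell (-1.32, SE 0.24), whereas SWI4 (0.38), the DNA-binding subunit of SBF, and MBP1 (-0.02), that of MBF, did not pass. Of 10 genes for Pho85 and its other cyclins 3 rose, PCL7 (1.81, SE 0.28), PCL10 (1.17, SE 0.22) and PCL8 (0.95), the last 2 linked to glycogen synthesis, and 1 fell, the G1 cyclin PCL2 (-0.86). Of 12 genes for ubiquitin ligases and mitotic exit 4 rose, led by CDH1, which targets mitotic cyclins for destruction (1.15, SE 0.26), and 1 fell, the phosphatase gene CDC14 (-1.46, SE 0.27). The rises of the Pho85 and ubiquitin ligase lists were likewise near the share of all genes. No list member passed the interaction test (limma, adjusted p over all genes). Of these genes CDC28, SRL3, PCL8, PCL2, SWI4, MBP1, POL1 and RAD53 were picked after their values had been seen.

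**Figure D5:**
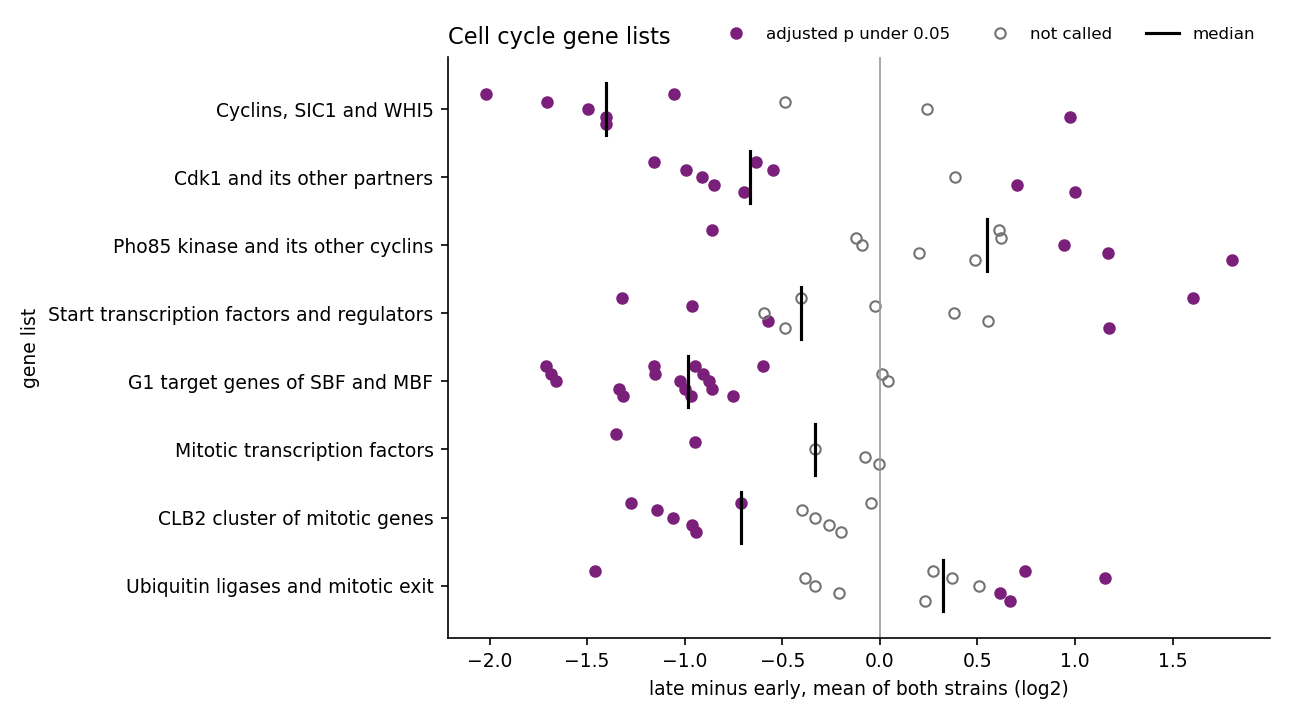
Late minus early difference in log2 in the mean of both strains (horizontal axis) of each gene in the 9 measured members and in each list of other cell cycle genes (vertical axis), with filled circles for genes past an adjusted p of 0.05, open circles for the others and a bar at the median. The members have the lowest median at -1.40, G1 target genes follow at -0.98, and the Pho85 list has the highest at 0.55.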

How the data were processed

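Total RNA of 12 yeast samples was measured against a reference on 2-colour arrays, per the labels. The deposited table holds log2 ratios, 1 per gene and array; that the authors' values are log ratios was read from the values, their base was taken as 2, and scanner, background correction, normalization and dyes are not given in the sources. Another base would rescale every difference. Columns of other samples numbered 0. Names came from a RefSeq table of assembly R64, used for names and neighbours only, which matched 5592 of 6100 genes.

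Arrays were then centred on their medians. Limma 3.58.1 (R 4.3.3, lmFit and eBayes, Benjamini-Hochberg over all genes, threshold 0.05) fitted a mean per strain and time bin on 12 arrays, for genes with at most 2 missing values and at least 1 early and 2 late values per strain, and the strain effect on 10 arrays with time point as a factor, for genes with at least 4 of 5 values per strain. Fits were run on simulated data with independent noise on each array. Such data cannot show how the p-values hold for successive time points of a single course. The members, bins and lists were chosen with earlier results of these data known. Named genes were all members, the 3 genes most correlated with each, and the 2 largest called changes of each list. Alternatives were the values as deposited, quantile normalization, complete genes, robust eBayes, other bins, slopes and leaving out each array. Promoter motifs and protein identity were not analysed here, and 1 list and 1 gene of the other lists are not reported here. The number of arrays limits the precision.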

Additional observations from a re-analysis of the deposited data

How the results depend on the processing

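The direction of the 7 called late minus early changes in the mean of both strains was the same under all alternatives run. With the 5-hour arrays counted as early, called genes numbered 1810 in the mean (4 members), 929 in wild type (2 members) and 78 in the deletion (0 members); counted as late, 175 in wild type (0 members). As slopes per time step they numbered 1920 in the mean, 308 in wild type (0 members) and 278 in the deletion (0 members). Quantile normalization left 2 members called in wild type and gave 1 gene in the interaction, a late bin of 9 hours and 1 day left 3 members called in the deletion, and 2 genes differed between strains at 7 hours, 9 hours and 1 day alone. The causes were not tested. Leaving out single arrays, called genes ran from 2708 to 3329 in the mean (6 to 8 members), 1253 to 2447 in wild type (5 to 7 members) and, in the deletion, 1317 to 2470 (1 to 6 members).

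Signs turned for values that did not pass. For SIC1 the late minus early mean was -0.40 after quantile normalization, -0.11 with 9 hours and 1 day as late and -0.0423 as a slope; in wild type these were -0.56, -0.075 and -0.0149, and in the deletion -0.25, -0.14 and -0.0697, with -0.37 for 5 hours as early. In the interaction they were, after quantile normalization, 0.31 for SIC1 and 0.36 for WHI5, with 7 and 9 hours as late 0.02 for WHI5, with 5 hours as early 0.73 for CLN1, and with 5 hours as late -0.20 for CLN2, -0.37 for CLB1 and 0.31 for SIC1. The strain effect at 7 hours, 9 hours and 1 day alone was 0.12 for CLN2, 0.41 for CLB1 and 0.22 for CLB6. Without single arrays, SIC1 ran from -0.075 to 0.74 (wild type) and -0.14 to 0.44 (deletion); the interaction from -0.46 to 0.78 for CLB1, -0.59 to 0.23 for SIC1 and -0.41 to 0.26 for WHI5; and the strain effect from -0.91 to 0.12 for CLN1, -0.61 to 0.035 for CLN2, -0.40 to 0.42 for CLB1, -0.063 to 0.68 for CLB2, -0.01 to 0.57 for CLB5 and -0.58 to 0.10 for CLB6. The strain effect was paired by shared time point; without time point in the fit it again called 0 genes.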
